A study of Mus musculus with 16 samples.

Results

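The response of the neurosensory retina (NSR) to bright light was measured in 8 of the 16 arrays of the study, chosen by their labels: 4 arrays of light-exposed mice (NSR light 1 to 4) and 4 of control mice (NSR control 1 to 4), each from the NSR of a different mouse. The animals were male Balb/cJ mice, an albino strain whose eyes lack screening pigment, aged 10 weeks. Exposure was to cool white fluorescent lamps at 10000 lux during 18 hours, and tissue was taken 4 hours later. Control mice stayed on a 12-hour light-dark cycle, so that the effects of light intensity and of the altered schedule cannot be told apart. The NSR holds photoreceptors, bipolar, horizontal, amacrine and ganglion cells, Müller glia, astrocytes, microglia and vessels, and in such bulk tissue fewer cells of a type and less RNA per cell cannot be told apart. The other 8 arrays, of the isolated retinal pigment epithelium (RPE) of the same mice, are used here where the response of the NSR is set against that of the RPE. Values are the deposited log2 expression values of a one-colour array, so that a difference of 1 is a 2-fold change of signal, and each of 19938 genes is represented by its brightest transcript cluster (the group of probes that reports a transcript).

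Photoreceptors turn light into an electrical signal through opsins, the G protein transducin, a cGMP phosphodiesterase and cGMP-gated channels. Excess light is a classic way to injure them in albino rodents. Injured photoreceptors and the microglia around them send out cytokines and chemokines, and Müller glia, which span the retina, answer, in part through LIF and endothelin, with the state known as reactive gliosis.

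In limma, 3012 of 19938 genes changed at a Benjamini-Hochberg adjusted p under 0.05, which is 15.1% of the genes tested. Of these, 1766 rose (8.86%) and 1246 fell (6.25%), and the median change of all genes was -0.02 on the log2 scale. The shares of 8.86% and 6.25% are those to set beside the counts of rises and falls of each list below. Rises reached farther than falls: 227 genes rose at least 2-fold (1.14%) and 43 fell at least 2-fold (0.216%). Above 4-fold there were 50 rises and 3 falls, the falls being Spc25, Glb1l3 and Opn1sw. Control levels of the genes with large changes differed: of the 43 genes that fell at least 2-fold, 32 lay in the brightest 25% of genes in control NSR, against 34 of the 227 that rose at least 2-fold. Light arrays all lay above control arrays for 2137 genes (10.7%) and all below for 1989 (9.98%). A principal component analysis set the groups apart on its first axis (60.5% of the variance), with light arrays at 16.17 to 26.01 and control arrays at -21.64 to -19.47. Light 3 showed the widest response, with a median change of 1.63 over the 227 large rises against 1.40, 1.5 and 1.42 in light 1, 2 and 4, and its value was the highest of the 4 for 138 of these genes. Array medians lay between 6.52 and 6.57.

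**Figure D1:**
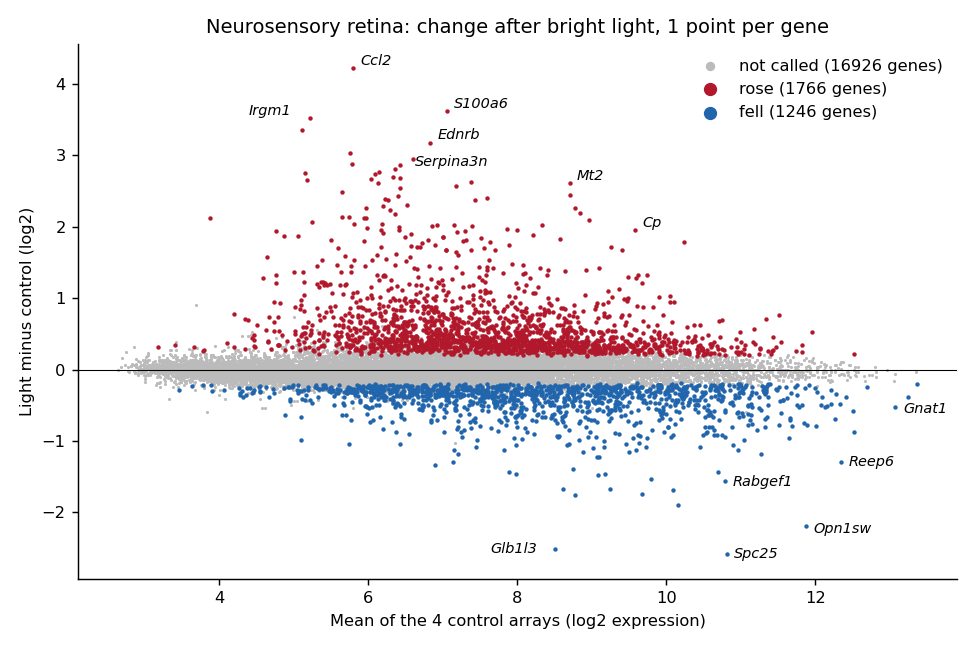
Light minus control (log2, vertical axis) against the mean of the 4 control arrays (log2 expression, horizontal axis) for 19938 genes, 1 point each. Red points rose (1766) and blue points fell (1246) in limma at an adjusted p under 0.05, and grey points were not called. The largest rise was Ccl2 at 4.22 and the largest fall Spc25 at -2.59.

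The interferon system held many of the rises. Cells sense foreign or misplaced nucleic acid with RIG-I-like receptors and other sensors, release interferons, and bind these through the receptor chains Ifnar1 and Ifnar2. Signals from these receptors then switch on genes that carry an interferon-stimulated response element (ISRE) in their promoters. Of 19 measured sensors and adaptors 9 rose (47.4% against 8.86% of all genes) and 0 fell, or 1 without light 3 or light 4. Their median log2 change was 0.29. Ddx58, which encodes the RNA sensor RIG-I, had values of 6.19, 6.70, 6.71 and 6.79 in control 1 to 4 and 9.47, 9.53, 9.69 and 9.48 in light 1 to 4. The groups were separated by 2.68 log2 units, and Ddx58 rose 7.71-fold (log2 2.95, SE 0.12, n = 4 per group, adjusted p = 1.6e-08). Eif2ak2, the RNA-activated kinase PKR that stops translation, lay at 5.55 to 5.98 in control and 8.51 to 8.79 in light arrays and rose 7.37-fold. Ifih1, the long-RNA sensor MDA5, rose 4.69-fold and the DNA-binding protein gene Ifi203 4.11-fold.

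Transcription factors of the pathway were measured beside the sensors. Of 14 interferon regulatory factors and STATs, 7 rose and 0 fell, or 1 without light 1, with a median of 0.35. Stat2 stood at 7.41, 7.70, 7.63 and 7.63 in control 1 to 4 and 10.03, 10.07, 9.91 and 9.93 in light 1 to 4. The groups lay 2.21 apart, further than either spread within itself, and Stat2 rose 5.26-fold (log2 2.40, SE 0.08, n = 4 per group, adjusted p = 3.64e-09). Irf7, the main amplifier of interferon production, rose 5.22-fold and Irf9, the DNA-binding partner of Stat2, 4.93-fold. Stat3, which acts below gp130 receptors, rose 3.90-fold (control arrays 7.87 to 8.16, light arrays 9.90 to 10.01).

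The interferon ligands did not pass the test. Of 11 interferons, receptor chains and receptor kinases 4 rose (36.4%) and 0 fell. Ifnb1, interferon beta, lay at 4.39 to 4.49 in control and 4.17 to 4.43 in light arrays, with a change of -0.15 (95% confidence interval -0.30 to 0.00, adjusted p = 0.180). Ifna4 differed by 0.10 (interval -0.08 to 0.27) and Ifng, interferon gamma, by -0.02 (interval -0.23 to 0.19), neither of them called. Ifnb1 and Ifna4 lay below 5.57, in the dimmest 25% of genes, where the height above background is unknown. Of the receptor chains, Ifnar2 rose 2.42-fold (control arrays 7.04 to 7.22, light arrays 8.22 to 8.47), and Ifnar1 1.19-fold, a call lost without control 1, control 3, light 2, light 3 or light 4. Il10rb, shared by the receptors of IL-10 and type III interferons, rose 1.67-fold and the kinase gene Jak2 1.23-fold. Neither Ifngr1 (change 0.01) nor Ifngr2 (0.19), the chains of the interferon gamma receptor, nor the kinase genes Jak1 (-0.01) and Tyk2 (-0.06) passed the test.

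Of all lists examined, that of the interferon-induced GTPases showed the highest share of rises. Of the 12 measured 11 rose, 91.7% against 8.86% of all genes, with a median change of 1.42. Irgm1, a GTPase that acts against intracellular microbes, had values of 5.56, 5.35, 5.0 and 4.98 in control 1 to 4 and 8.63, 8.79, 8.76 and 8.81 in light 1 to 4. The control arrays spread over 0.58 log2 units and the light arrays over 0.18, and Irgm1 rose 11.5-fold (log2 3.52, SE 0.12, n = 4 per group, adjusted p = 5.22e-09). Its control mean of 5.22 lies in the dimmest 25% of genes, so that the size of its fold is uncertain, as for Mx2, which rose 10.2-fold (control arrays 4.75 to 5.48, light arrays 8.38 to 8.57), and Gbp3, which rose 6.34-fold. Among the guanylate-binding proteins, Gbp7 rose 5.24-fold, Gbp2b 4.42-fold, Gbp5 2.97-fold, Gbp9 2.38-fold and Gbp4 1.82-fold. Iigp1 rose 2.42-fold and Gbp11 1.31-fold. The guanylate-binding proteins are close relatives, and sharing of signal between their probes was not tested. Gbp8 rose 1.32-fold with overlapping groups, a call lost without control 1, control 2, control 3, light 1, light 2 or light 3. Mx1 was the member not called, at 4.17 to 4.34 in control and 4.36 to 4.70 in light arrays (change 0.24, adjusted p = 0.0780).

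Among 43 further antiviral genes 28 rose (65.1%) and 1 fell (2.3%), with a median of 0.57. Rtp4, a receptor transporter protein induced by interferon, stood at 5.80, 5.58, 5.78 and 5.86 in control 1 to 4 and 8.76, 8.83, 9.08 and 8.53 in light 1 to 4 and rose 8.25-fold (log2 3.04, SE 0.11, n = 4 per group, adjusted p = 6.36e-09). Parp9, an ADP-ribosyltransferase family member, rose 6.36-fold. Ifit3, which binds viral RNA complexes, rose 5.82-fold, with light 3 at 9.73 and the other light arrays between 8.59 and 8.94. Ifitm3, which blocks viral entry, was bright in both groups and rose 5.46-fold (control arrays 8.56 to 8.88, light arrays 11.04 to 11.26). The member that fell was Tdrd7, a tudor domain gene, by 0.25 on the log2 scale, a call lost without control 2.

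The calls of antigen presentation genes split by class. Of 16 genes of MHC class I and the immunoproteasome, which cuts peptides for it, 13 rose (81.2%) and 0 fell (median 0.78). B2m, the light chain of MHC class I, had values of 8.47, 9.03, 9.0 and 8.89 in control 1 to 4 and 10.96, 11.01, 11.31 and 10.88 in light 1 to 4. Control 1 was the lowest, at 8.47 against 8.89 to 9.03 in the others, the groups did not overlap, and B2m rose 4.57-fold (log2 2.19, SE 0.13, n = 4 per group, adjusted p = 3.15e-07). The immunoproteasome subunit genes Psmb9 and Psmb8 rose 5.21-fold and 3.86-fold, and Tap1, a subunit of the peptide transporter, rose 3.30-fold. Of the 6 MHC class II genes measured, 0 rose and 0 fell in limma, and the median was -0.08. Cd74, the invariant chain, changed by 0.02 (95% confidence interval -0.20 to 0.24), Ciita, the master regulator of class II, by -0.03 (-0.21 to 0.15) and H2-Aa by -0.20 (-0.47 to 0.07). H2-DMa differed by 0.13, H2-Ab1 by -0.13 and H2-Eb1 by -0.12. At an unadjusted p under 0.05 the class II count was also 0.

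**Figure D2:**
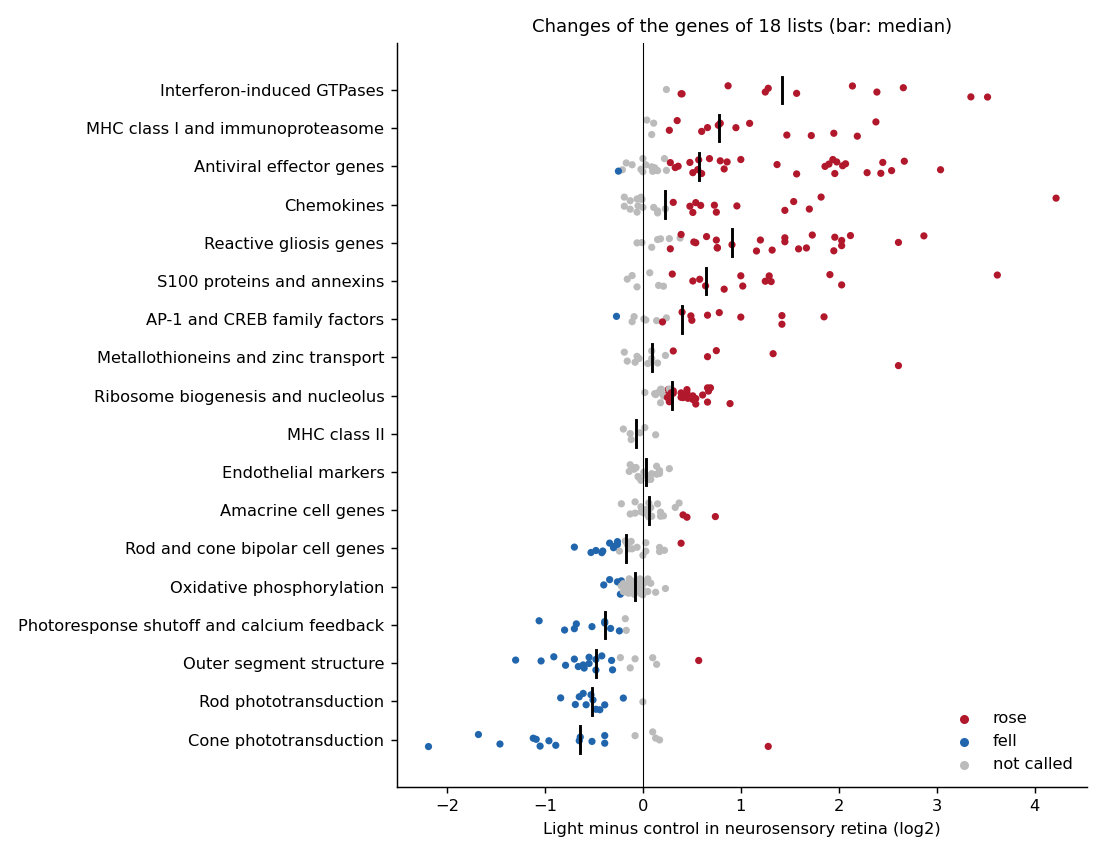
Light minus control (log2, horizontal axis) for each gene of 18 lists (vertical axis). Red points rose, blue points fell and grey points were not called in limma, and the black bar is the list's median: 1.42 for interferon-induced GTPases, 0.91 for reactive gliosis genes, -0.08 for MHC class II and -0.65 for cone phototransduction. The single red point of the cone list is Gnb3 at 1.28.

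Promoter sequences were available for 15563 of the 19938 genes, from RefSeq on the GRCm38.p6 build, as windows from 250 bases before to 50 bases after each gene's start. The ISRE was searched as GAAA, any 2 bases, GAAA on both strands, so that it also appears as TTTC, any 2 bases, TTTC. A gene counted if any of its windows held the match. The ISRE was found in 17 of the 36 GTPase, antiviral and MHC class I genes that rose and had a window (47.2%). Of the 175 genes that rose at least 2-fold 14.9% held it, and of the 174 that fell at least 1.5-fold 2.87%. The share among all 15563 genes with a window was 3.89%. A match is a description of the letters and does not show that a factor binds there. The stretches printed here show 5 of these genes, chosen among those with the largest rises and a match before the start site, since they let the reader see the element beside the response. Capitals mark the match, with up to 40 bases on each side and none past the start site, read 5′ to 3′ on the strand of the gene.
Irgm1 (chr11:48871421-48871490, minus strand): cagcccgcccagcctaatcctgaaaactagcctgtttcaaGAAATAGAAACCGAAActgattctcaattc
Gbp3 (chr3:142559959-142560043, plus strand): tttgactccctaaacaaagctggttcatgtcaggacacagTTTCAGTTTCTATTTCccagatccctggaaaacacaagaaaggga
Ifit3 (chr19:34583333-34583456, plus strand): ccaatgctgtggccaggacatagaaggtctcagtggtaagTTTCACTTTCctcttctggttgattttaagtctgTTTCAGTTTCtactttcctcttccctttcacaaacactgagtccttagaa
Gbp7 (chr3:142530243-142530332, plus strand): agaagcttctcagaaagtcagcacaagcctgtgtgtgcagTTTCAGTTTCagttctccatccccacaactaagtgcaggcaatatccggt
B2m (chr2:122147508-122147597, plus strand): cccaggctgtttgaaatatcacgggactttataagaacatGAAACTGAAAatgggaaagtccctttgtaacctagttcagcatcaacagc
Irgm1 and Gbp3 each held 2 overlapping matches, starting at bases -30 and -24 and at -45 and -39 from the start site. Ifit3 held 2 separate matches, at -156 and -122. These 5 genes rose 11.5-fold, 6.34-fold, 5.82-fold, 5.24-fold and 4.57-fold, in the order shown.

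Chemokines and cytokines formed the next group. Ccl2, which attracts monocytes, was the largest rise of the tissue, with values of 5.91, 5.08, 6.01 and 6.18 in control 1 to 4 and 9.84, 10.13, 10.31 and 9.80 in light 1 to 4. The lowest light array lay 3.62 log2 units above the highest control array, control 2 was the lowest of its group, and Ccl2 rose 18.6-fold (log2 4.22, SE 0.20, n = 4 per group, adjusted p = 7.49e-08). Of 27 chemokines 13 rose (48.1%) and 0 fell, or 1 without control 1, with a median of 0.23. Ccl12, also a monocyte attractant, rose 3.53-fold (control arrays 5.10 to 5.91, light arrays 7.12 to 7.49), Ccl3 3.24-fold and Cxcl2, which attracts neutrophils, 2.91-fold. Of 33 interleukin and TNF family ligands and receptors 14 rose (42.4%) and 0 fell. Il1a, an IL-1 ligand, rose 3.67-fold from low levels of 4.84 to 5.54. Il33, an alarmin stored in nuclei, including those of Müller glia, was bright at 9.18 to 9.36 and rose 3.29-fold to 10.89 to 11.12. The death receptor gene Fas rose 2.27-fold and Tnfrsf12a, the receptor of TWEAK, 2.29-fold.

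LIF binds a receptor that contains the gp130 chain and activates STAT3, a route known to protect photoreceptors. Lif stood at 5.51, 5.60, 5.77 and 5.71 in control 1 to 4 and 7.97, 8.03, 8.59 and 7.96 in light 1 to 4. Light 3 was the highest at 8.59, the other light arrays lay between 7.96 and 8.03, and Lif rose 5.62-fold (log2 2.49, SE 0.13, n = 4 per group, adjusted p = 1.22e-07). Osmr, the oncostatin M receptor that pairs with gp130, rose 6.12-fold (control arrays 6.04 to 6.33, light arrays 8.57 to 8.90), and Il6st, gp130 itself, 2.32-fold (control arrays 9.52 to 9.80, light arrays 10.77 to 10.95). Pias3, an inhibitor of STAT3 that is also active in photoreceptor gene control, fell 1.98-fold (control arrays 8.77 to 8.88, light arrays 7.72 to 8.02). In the whole list of 19 genes 6 rose (31.6%) and 1 fell (5.3%). The feedback inhibitors Socs3 (1.42-fold) and Socs2 (1.94-fold) were among the rises.

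NF-kB is the factor that drives many inflammatory genes and induces its own inhibitors. Of 21 subunits and feedback inhibitors 11 rose (52.4%) and 2 fell (9.5%), with a median of 0.37. Nfkbia, the inhibitor IkB alpha, rose 2.27-fold, Map3k8, a kinase of the pathway, 2.50-fold and Bcl3, an atypical inhibitor, 1.94-fold. Tnfaip3, which encodes the ubiquitin-editing inhibitor A20, went the other way, with values of 9.51, 9.64, 9.53 and 9.52 in control 1 to 4 and 8.57, 8.55, 8.87 and 8.35 in light 1 to 4. All light arrays lay below all control arrays, and Tnfaip3 fell 1.95-fold (log2 -0.96, SE 0.10, n = 4 per group, adjusted p = 3.03e-05). The other fall was Ikbkg, a subunit of the kinase that frees NF-kB, by 0.23 on the log2 scale, a call lost without control 1, control 2, control 3, control 4, light 1, light 2 or light 4.

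Transcription factors of the early response were counted next. Of 17 AP-1 and CREB family factors 10 rose (58.8%) and 1 fell (5.9%). Atf3, a stress-induced member, rose 3.61-fold (control arrays 6.79 to 7.35, light arrays 8.67 to 9.01), Fosl1 2.68-fold, Jun 2.67-fold and Fos 2.00-fold. The fall was Batf, by 0.27, a call lost without control 2. Of 19 Egr, Nr4a, Myc and serum response genes 9 rose (47.4%) and 0 fell, or 1 without control 2. Egr2 stood at 6.03, 6.09, 6.24 and 6.21 in control 1 to 4 and 8.88, 9.11, 8.87 and 8.79 in light 1 to 4 and rose 6.83-fold (log2 2.77, SE 0.08, n = 4 per group, adjusted p = 2.44e-09). Myc, a driver of growth and ribosome production, stood at 5.01, 5.22, 5.20 and 5.17 in control 1 to 4 and 7.64, 7.91, 8.39 and 7.68 in light 1 to 4. It was highest in light 3, and it rose 6.73-fold (log2 2.75, SE 0.14, n = 4 per group, adjusted p = 1.06e-07) from control levels in the dimmest 25% of genes. Egr1 rose 2.14-fold and Nr4a1 1.58-fold.

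Of 20 C/EBP, Kruppel-like and related factors 9 rose and 0 fell. Cebpd, a factor of the acute phase response, rose 7.02-fold (log2 2.81, SE 0.08, n = 4 per group, adjusted p = 2.14e-09), with control arrays at 6.21 to 6.51 and light arrays at 9.11 to 9.26. Ets2 rose 2.28-fold, Klf6 2.16-fold and Klf10 1.89-fold. Among 20 MAP kinase phosphatases and feedback genes 10 rose and 1 fell, the fall being the phosphatase gene Dusp14 by 0.44. The falls numbered 3 without light 3 and 2 with the replicate number as a block. Gadd45b, a stress-induced regulator of MAP kinases, rose 6.44-fold and its relative Gadd45g 1.84-fold. The ERK inhibitor gene Spry2 rose 1.76-fold and the phosphatase gene Dusp16 1.74-fold. Nupr1, a nuclear stress protein, rose 6.18-fold (control arrays 7.25 to 7.48, light arrays 9.86 to 10.36).

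Endothelin signalling links injured photoreceptors to glia: Edn2 is known to be made by stressed photoreceptors, and its receptor Ednrb is found on Müller glia and astrocytes. Ednrb had values of 6.86, 6.85, 7.03 and 6.59 in control 1 to 4 and 9.87, 9.93, 10.50 and 9.75 in light 1 to 4. Light 3 was the highest, the groups were 2.72 log2 units apart, and Ednrb rose 9.08-fold (log2 3.18, SE 0.15, n = 4 per group, adjusted p = 4.95e-08). Edn2 stood at 5.48, 5.68, 5.82 and 5.78 in control 1 to 4 and 6.87, 6.38, 6.15 and 6.38 in light 1 to 4. The groups did not overlap, light 1 was the highest, and Edn2 rose 1.69-fold (log2 0.76, SE 0.13, n = 4 per group, adjusted p = 0.00222). Edn1 rose 1.41-fold (control arrays 5.48 to 5.84, light arrays 6.0 to 6.51). Edn3 and the converting enzyme genes Ece1 and Ece2 were not called, with changes of -0.16, 0.23 and 0.21. Ece2 has 2 transcript clusters, with changes of 0.21 and 0.53, and 1 of them was called.

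Survival and growth factors moved both ways: of 28 measured, 5 rose and 5 fell (17.9% each, against 8.86% and 6.25% of all genes). Fgf2, a factor that protects photoreceptors when injected into the eye, had values of 7.39, 7.20, 7.14 and 7.49 in control 1 to 4 and 9.09, 9.47, 8.64 and 9.25 in light 1 to 4. Light 3 was the lowest of the light arrays, the groups did not overlap, and Fgf2 rose 3.5-fold (log2 1.81, SE 0.15, n = 4 per group, adjusted p = 5.94e-06). Nudt6, which overlaps Fgf2 on the other strand, rose 2.92-fold. Hbegf, a ligand of the EGF receptor, stood at 7.56, 7.46, 7.49 and 7.43 in control 1 to 4 and 8.71, 8.88, 9.75 and 8.31 in light 1 to 4. It rose 2.69-fold (log2 1.43, SE 0.23, n = 4 per group, adjusted p = 0.00101), and light 3 stood apart at 9.75. Gdnf, Inhbb and Bdnf, the other rises, gained 0.36, 0.32 and 0.31 on the log2 scale. Nxnl1, which encodes the rod-derived cone viability factor, fell 2.35-fold (control arrays 9.0 to 9.15, light arrays 7.75 to 7.95). Ptn, the growth factor pleiotrophin, fell 2.12-fold (control arrays 9.62 to 9.85, light arrays 8.56 to 8.71), and Igf2, Pdgfc and Gas6 fell by 0.51, 0.38 and 0.32. The count of rises was 3 without control 2 or light 1, and that of falls 3 without control 2, control 3 or light 4. Of 18 VEGF and angiopoietin genes 3 rose (16.7%) and 1 fell (5.6%), against 8.86% and 6.25% of all genes. Angpt1, which steadies vessels, rose 1.54-fold and the co-receptor gene Nrp1 1.53-fold. The call of Adm (1.2-fold higher) was lost without control 3, control 4, light 1, light 3 or light 4. That of Epas1 (1.2-fold lower) was lost without control 1, control 2, light 1 or light 2. Among 29 BMP and TGF-beta genes 5 rose and 1 fell, with Tgif1, a repressor of this pathway, up 2.26-fold, the ligand gene Tgfb2 up 1.94-fold, the receptor gene Acvr1 up 1.59-fold and Smad3, which carries the signal to the nucleus, up 1.44-fold. The falls numbered 0 without control 2 and 3 without light 3.

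Reactive gliosis genes rose as a group, 24 of 31 (77.4% against 8.86% of all genes) with 0 falls and a median of 0.91. Serpina3n, a secreted protease inhibitor, rose 7.29-fold (control arrays 6.34 to 6.57, light arrays 9.15 to 9.42), and Lcn2, which binds bacterial iron carriers, 4.35-fold. Vim, an intermediate filament of Müller glia, stood at 9.41, 9.43, 9.36 and 9.40 in control 1 to 4 and 11.04, 11.05, 11.22 and 10.97 in light 1 to 4. The control arrays lay within 0.07 of each other, and Vim rose 3.18-fold (log2 1.67, SE 0.07, n = 4 per group, adjusted p = 1.67e-08). Gfap, the intermediate filament whose rise in Müller glia is the classic sign of gliosis, rose 2.73-fold (control arrays 5.49 to 5.92, light arrays 7.19 to 7.26). Of 11 astrocyte markers, 2 rose, Gfap and Aldh1l1 (1.68-fold). Aldoc fell 1.19-fold, a call lost without control 1, control 2, control 3 or light 3. Aqp4 (-0.20), Slc1a2 (-0.20), Pax2 (-0.03), S100b (-0.11), Pdgfra (0.08), Gja1 (0.08), Gjb6 (-0.08) and Fgfr3 (-0.18) did not pass the test.

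Genes of the resting work of Müller glia split. Of 25 measured, 6 rose and 8 fell, with a median of -0.14. The rises include Vim, given above beside the gliosis genes. Rlbp1, which carries retinoids in these cells and in the RPE, had values of 9.84, 9.87, 9.79 and 9.69 in control 1 to 4 and 8.36, 8.30, 8.00 and 8.38 in light 1 to 4. All light arrays lay at least 1.31 below all control arrays, and Rlbp1 fell 2.90-fold (log2 -1.53, SE 0.09, n = 4 per group, adjusted p = 2.96e-07). Rpe65, which marks the RPE and not Müller glia, lay at 4.17 to 5.70 in control and 3.93 to 4.36 in light arrays, and the part of RPE RNA in the fall of Rlbp1 was not tested. Abca8a, an ABC transporter, fell 3.33-fold, with light 3 the lowest at 7.37, and Car14, a membrane carbonic anhydrase, 2.33-fold, again lowest in light 3. Glul, the glutamine synthetase that recycles glutamate, fell 1.84-fold, Apoe 1.75-fold and Kcnj10, the potassium channel of these cells, 1.28-fold. Crym, a thyroid hormone-binding protein, went up 3.67-fold (control arrays 8.09 to 8.34, light arrays 9.78 to 10.32). Slc14a1, a urea transporter outside this list, rose 5.94-fold (control arrays 7.0 to 7.30, light arrays 9.42 to 10.31).

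Calcium-binding S100 proteins and annexins, which act at membranes and the cytoskeleton, rose in 13 of 19 cases with 0 falls and a median of 0.64. S100a6 stood at 7.24, 6.91, 7.24 and 6.82 in control 1 to 4 and 10.66, 10.70, 10.78 and 10.56 in light 1 to 4. The light arrays lay within 0.22 of each other, the groups were 3.32 apart, and S100a6 rose 12.3-fold (log2 3.62, SE 0.10, n = 4 per group, adjusted p = 2.14e-09). S100a10 rose 4.09-fold, and its partner Anxa2 3.76-fold (control arrays 6.04 to 6.31, light arrays 7.74 to 8.67). Anxa3 rose 2.48-fold.

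Among 22 matrix proteases and their inhibitors 8 rose and 0 fell. Timp1, an inhibitor of metalloproteinases, rose 3.00-fold, Adamts1 2.54-fold, Mmp14 2.11-fold and Adamts5 1.74-fold. Of 15 serpins 4 rose, among them Serpinb6a by 1.65-fold and Serpinb2 by 1.66-fold, the latter highest in light 3 at 6.10. A2m, a broad protease inhibitor of plasma, rose 6.50-fold (log2 2.70, SE 0.08, n = 4 per group, adjusted p = 2.46e-09) (control arrays 6.27 to 6.36, light arrays 8.86 to 9.26). Of 24 collagens and matricellular proteins 3 rose and 3 fell (12.5% each, against 8.86% and 6.25% of all genes), with a median of -0.01. Ccn1 rose 1.83-fold, Fn1 1.64-fold and Sparc 1.29-fold. Col4a3 fell 1.48-fold, Col3a1 1.23-fold and Col9a1 1.24-fold. The Col9a1 call was lost without control 1, control 3, light 1, light 2 or light 3. Of 15 leukocyte adhesion molecules 5 rose, led by Vcam1 (3.33-fold), Cd44 (3.31-fold), Itga4 (1.74-fold) and Itgb1 (1.51-fold), with Icam1 the remaining one (1.35-fold), and Jam2 fell 1.48-fold.

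Complement genes included some of these changes. C3ar1, which encodes the C3a receptor of myeloid cells, rose 4.39-fold (control arrays 5.85 to 6.10, light arrays 7.87 to 8.49). Of 23 components and receptors 5 rose (21.7% against 8.86% of all genes), also C1s1 (1.36-fold), C1qc (1.47-fold), Masp2 (1.23-fold) and C1qb (1.2-fold). But the count was 2 without control 3, light 2 or light 3 and 3 without control 1, control 2 or light 1. Of 12 regulators 5 rose: Serping1, the C1 inhibitor (3.97-fold), Cfi (2.32-fold), Clu, or clusterin (1.61-fold), Cr1l (1.36-fold) and Cd55 (1.24-fold). Vtn, vitronectin, fell 1.59-fold (control arrays 11.28 to 11.44, light arrays 10.47 to 10.79). Cd46 (0.18), Cd59a (-0.22), Cd59b (-0.09), Cd55b (-0.09), C4bp (-0.13) and Thbd (0.21, with light 3 at 7.13 and the other light arrays at 5.77 to 6.24) did not pass the test.

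Metal handling and antioxidant genes followed. Metallothioneins bind zinc and copper and scavenge radicals. Mt2 stood at 8.67, 8.54, 8.90 and 8.71 in control 1 to 4 and 11.20, 11.33, 11.50 and 11.24 in light 1 to 4. The groups were 2.30 apart, and Mt2 rose 6.12-fold (log2 2.61, SE 0.09, n = 4 per group, adjusted p = 5.6e-09). Mt1 rose 2.51-fold (control arrays 9.58 to 10.00, light arrays 10.91 to 11.21). Of the 15 metallothioneins and zinc transporters 5 rose and 0 fell, the other rises being the zinc importers Slc39a10 (1.68-fold), Slc39a1 (1.58-fold) and Slc39a14 (1.24-fold). The 2 transcript clusters of Slc39a1 disagreed, with changes of -0.03 and 0.66, and 1 of them was called.

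Hmox1, which breaks down heme and is a target of the factor Nrf2, stood at 5.94, 6.26, 6.11 and 6.05 in control 1 to 4 and 8.77, 8.89, 9.27 and 8.41 in light 1 to 4. It was highest in light 3 and lowest in light 4 among the light arrays, and it rose 6.70-fold (log2 2.74, SE 0.15, n = 4 per group, adjusted p = 1.53e-07). Of 26 Nrf2, thioredoxin and peroxide genes 9 rose and 0 fell, or 1 without control 2, among them Sqstm1 (1.80-fold) and Txnrd1 (1.5-fold). Of 27 glutathione genes 7 rose and 2 fell. Slc7a11, the cystine importer, rose 3.60-fold (log2 1.85, SE 0.07, n = 4 per group, adjusted p = 8.68e-09), Mgst1 2.57-fold and Gclm, a subunit of the enzyme that starts glutathione synthesis, 1.46-fold. The falls were the transferase genes Gstt1 (by 0.36) and Gstp1 (by 0.32).

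Iron genes rose in 8 of 30 cases (26.7% against 8.86% of all genes), with a median of 0.01. The 2 falls (6.7%) were near the 6.25% of all genes. Cp, the ferroxidase ceruloplasmin, stood at 9.50, 9.59, 9.62 and 9.61 in control 1 to 4 and 11.55, 11.56, 11.49 and 11.55 in light 1 to 4. No light array was below 11.49 and no control array above 9.62, and Cp rose 3.87-fold (log2 1.95, SE 0.06, n = 4 per group, adjusted p = 2.46e-09). Slc25a37, mitoferrin 1, which carries iron into mitochondria, rose 3.48-fold (control arrays 7.14 to 7.39, light arrays 8.94 to 9.19). Ftl1, the ferritin light chain, rose 1.90-fold and Trf, transferrin, 3.24-fold. The iron sensor gene Hfe fell 1.78-fold and Tfrc, the transferrin receptor, 1.24-fold.

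Genes of the protein and DNA damage stress responses were counted next. Of 29 heat shock genes 7 rose and 1 fell, with Bag3 up 1.95-fold, Dnajb1 up 1.47-fold and the factor gene Hsf2 down 1.32-fold. The count of rises was 4 without control 1, light 2, light 3 or light 4, and that of falls 2 without light 4. Of 34 genes of the unfolded protein and integrated stress response 12 rose and 5 fell, with the sensor kinase gene Eif2ak3 up 1.77-fold and Dnajb9 up 1.47-fold. The falls were Vldlr (1.61-fold), Phgdh (1.46-fold), Ddit4 (1.30-fold), Pdia4 (1.21-fold) and Psat1 (1.17-fold), and their count was 2 without control 4 or light 1 and 3 without control 2, control 3 or light 2. Among 22 p53 targets 8 rose and 1 fell, with Plk2 up 2.12-fold, the rises numbered 4 without light 1 or light 3 and 5 without control 2 or control 4, and the falls 0 without control 2, control 3, control 4, light 1, light 2 or light 4.

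Of 25 caspases and genes of necroptosis and pyroptosis 7 rose and 1 fell. Casp8, the caspase that acts below death receptors, rose 2.59-fold (control arrays 5.40 to 5.80, light arrays 6.66 to 7.31), and the inflammatory caspase genes Casp1 and Casp4 rose 1.71-fold and 1.64-fold from dim levels. Xiap, a caspase inhibitor, had values of 10.65, 10.84, 10.85 and 10.81 in control 1 to 4 and 9.85, 9.80, 9.86 and 9.85 in light 1 to 4. The light arrays lay within 0.06 of each other, and Xiap fell 1.93-fold (log2 -0.95, SE 0.06, n = 4 per group, adjusted p = 1.23e-06). Among 16 BCL2 family members the survival gene Mcl1 rose 1.58-fold and Bcl2l1 1.42-fold, the latter with overlapping groups and a call lost without control 1, control 2, control 3, light 1 or light 2. Hrk fell 1.15-fold, a call lost without any 1 of 7 arrays. Lysosomal genes rose in 7 of 28 cases and fell in 1, or 2 without light 2: the cathepsin genes Ctsc and Ctsh rose 3.07-fold and 2.16-fold, the membrane protein gene Lamp2 1.86-fold, and the cathepsin gene Ctsf fell 1.43-fold.

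Genes that build ribosomes were counted next. Of 39 ribosome biogenesis genes 27 rose (69.2%) and 0 fell, with a median of 0.30 on the log2 scale. The rises numbered 18 to 27 when 1 array was left out. Rrp1b, which processes ribosomal RNA, rose 1.85-fold, Ddx21, a nucleolar helicase, 1.62-fold, Fbl, the RNA methyltransferase fibrillarin, 1.59-fold and Gnl3 1.57-fold. Fbl has 2 transcript clusters, with changes of 0.25 and 0.67, and 1 of them was called. Of 35 initiation factors 14 rose and 1 fell, with Eif3b up 1.77-fold, Eif4a1 up 1.54-fold, Eif1a up 1.53-fold and Eif3e down 1.22-fold. Of 34 ribosomal proteins 7 rose, led by Rplp0, which rose 1.84-fold (control arrays 9.63 to 9.74, light arrays 10.42 to 10.72), and 0 fell. Aminoacyl-tRNA synthetases, which load amino acids onto tRNA, rose in 6 of 21 cases and fell in 1. Tars rose 1.58-fold, Rars 1.40-fold and Hars 1.30-fold, and Cars fell 1.27-fold. The Hars call was lost without control 1, control 3, light 1, light 2 or light 3, the Cars call without control 2, control 3, light 1, light 2 or light 4. Ipo5, which imports ribosomal proteins into the nucleus, rose 2.19-fold (control arrays 9.32 to 9.43, light arrays 10.37 to 10.61), while Kpna2, an importin alpha gene, fell 1.70-fold (control arrays 11.82 to 11.92, light arrays 11.09 to 11.13). In the list of 38 nuclear transport genes 9 rose (23.7% against 8.86% of all genes) and 3 fell (7.9%, near the 6.25% of all genes). The falls numbered 1 without control 1 or light 1. Of the 9 genes of the CCT chaperonin, which folds actin and tubulin, 1 rose, Cct2 (1.15-fold), a call lost without any 1 of 8 arrays. The other CCT genes changed by -0.19 (Cct6b) to 0.20 (Tcp1 and Cct3). Proteasome subunits rose in 3 of 31 cases (Psmd13, 1.33-fold; Psmd12, 1.22-fold; Psma5, 1.21-fold), near the 8.86% of all genes, and numbered 5 without light 1.

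**Figure D3:**
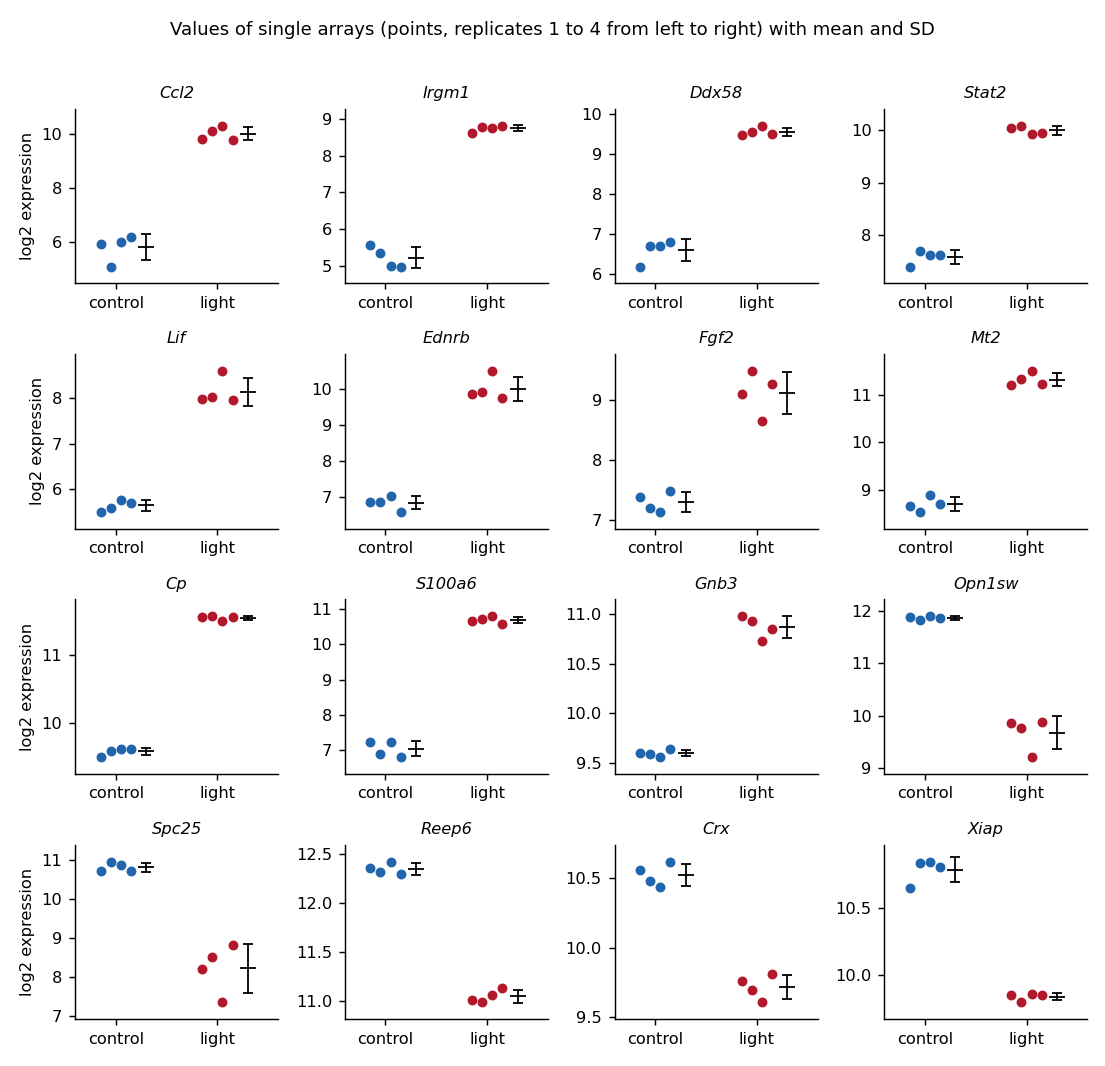
Log2 expression of 16 genes in each array (blue points control 1 to 4, red points light 1 to 4, from left to right), with mean and SD (n = 4) in black beside each group. Each panel has its own vertical axis, which does not start at 0. The groups do not overlap in any of the 16 panels, and light 3 stands highest for Ednrb (10.50) and Lif (8.59) and lowest for Opn1sw (9.21) and Spc25 (7.36).

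Photoreceptor genes fell. The labelled tissue carried its markers: in control arrays Gnat1, the alpha subunit of rod transducin, lay at 13.36 to 13.38 and Pde6b, a subunit of the rod phosphodiesterase, at 12.48 to 12.55, among the brightest genes. Of 12 rod phototransduction genes 11 fell (91.7% against 6.25% of all genes) and 0 rose, with a median of -0.52. Gucy2f, which makes cGMP in outer segments, had values of 11.17, 11.28, 11.18 and 11.21 in control 1 to 4 and 10.42, 10.37, 10.27 and 10.43 in light 1 to 4 and fell 1.78-fold (log2 -0.84, SE 0.06, n = 4 per group, adjusted p = 3.15e-06). The phosphodiesterase genes Pde6g, Pde6a, Pde6b and Pde6d fell 1.62-fold, 1.53-fold, 1.5-fold and 1.45-fold. The exchanger gene Slc24a1 fell 1.57-fold, the channel gene Cnga1 1.43-fold and Gucy2e 1.40-fold. The transducin genes had the smallest measured falls: Gngt1 1.36-fold, Gnb1 1.31-fold and Gnat1 1.15-fold. The highest control mean of any gene was 13.37, and Gnat1 lay at that level. Whether the array's range limits its fold was not tested. Gnat1 was the weakest call, with light arrays at 13.14 to 13.21 against 13.36 to 13.38, no overlap, and an adjusted p of 0.0328 that was lost without control 1, control 2, control 3, control 4, light 1, light 2 or light 3, or with the arrays centred on their medians. Cngb1 was the member not called, at 9.76 to 10.24 and 9.70 to 10.23, but its 4 transcript clusters disagreed, with changes from -0.81 to 0.00 and 2 of them called.

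Of 11 genes that end the photoresponse 9 fell and 0 rose, with a median of -0.39. Ppef2, a photoreceptor phosphatase, fell 2.09-fold (control arrays 10.81 to 11.06, light arrays 9.70 to 10.00), Unc119, which carries transducin to the outer segment, 1.75-fold, Gnb5 1.63-fold and the calcium sensor gene Rcvrn 1.6-fold. Guca1a fell 1.44-fold, Grk1 1.31-fold, Pdc 1.31-fold and Rgs9 1.25-fold. Sag, rod arrestin, fell 1.18-fold in a call that was lost without any 1 of 7 arrays or with the arrays centred. Rgs9bp (-0.18) and Camk2d (-0.17) did not pass the test.

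Cone genes fell as well. Of 18 measured 13 fell and 1 rose, with a median of -0.65. Opn1sw, the short-wavelength opsin, stood at 11.89, 11.83, 11.90 and 11.86 in control 1 to 4 and 9.86, 9.76, 9.21 and 9.87 in light 1 to 4. The control arrays lay within 0.07 of each other, light 3 was the lowest, and Opn1sw fell 4.57-fold (log2 -2.19, SE 0.13, n = 4 per group, adjusted p = 2.96e-07). Opn1mw, the medium-wavelength opsin, fell 2.75-fold (control arrays 8.96 to 9.32, light arrays 7.03 to 8.07), and Arr3, cone arrestin, 3.21-fold (control arrays 10.00 to 10.17, light arrays 8.04 to 8.65). Gnat2, cone transducin alpha, fell 2.18-fold and the cone channel subunit gene Cngb3 2.07-fold. Kcnv2, a potassium channel subunit of rods and cones, fell 1.95-fold. The exception was Gnb3, the beta subunit of cone transducin that ON bipolar cells also use, with values of 9.60, 9.59, 9.56 and 9.64 in control 1 to 4 and 10.98, 10.93, 10.73 and 10.85 in light 1 to 4. All light arrays lay above all control arrays, and Gnb3 rose 2.42-fold (log2 1.28, SE 0.07, n = 4 per group, adjusted p = 1.81e-07).

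Of 17 transcription factors of photoreceptors 7 fell and 2 rose, with a median of -0.21. Crx, the homeodomain factor of rods and cones, had values of 10.56, 10.48, 10.44 and 10.62 in control 1 to 4 and 9.76, 9.70, 9.61 and 9.81 in light 1 to 4 and fell 1.75-fold (log2 -0.80, SE 0.07, n = 4 per group, adjusted p = 9.41e-06). Nrl, which directs the rod fate, fell 1.75-fold (control arrays 11.27 to 11.36, light arrays 10.33 to 10.64), and Mef2c 2.18-fold (control arrays 9.51 to 9.69, light arrays 8.41 to 8.57). Esrrb fell 1.43-fold and Otx2, which acts above Crx, 1.34-fold. The rises were Neurod1 (1.37-fold) and Mef2d (1.18-fold). The Mef2d call was lost without any 1 of 7 arrays.

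Genes of the outer segment and of the cilium that feeds it were counted next. Of 21 outer segment genes 15 fell and 1 rose, with a median of -0.48. Reep6, a membrane-shaping protein of rods, had values of 12.35, 12.31, 12.42 and 12.29 in control 1 to 4 and 11.01, 10.99, 11.06 and 11.13 in light 1 to 4 and fell 2.45-fold (log2 -1.30, SE 0.06, n = 4 per group, adjusted p = 7.49e-08). Fscn2, an actin bundler, fell 2.05-fold, Prcd, a disc protein, 1.88-fold and Prph2, which shapes disc rims, 1.72-fold (control arrays 12.00 to 12.03, light arrays 11.01 to 11.35). The rise was Impg2, a proteoglycan of the matrix around the photoreceptors, 1.49-fold. Of 38 cilium genes 12 fell and 1 rose, with a median of -0.16: Bbs9, Ttc8 and Bbs7, parts of the BBSome that carries cargo to the cilium, fell 1.53-fold, 1.52-fold and 1.52-fold, while Ift57, a transport subunit, rose 1.93-fold (control arrays 9.97 to 10.11, light arrays 10.84 to 11.07). Among 18 visual cycle genes 6 fell and 2 rose. Rdh12, a photoreceptor retinol dehydrogenase, fell 1.97-fold (control arrays 10.97 to 11.16, light arrays 9.94 to 10.13), and the rises were Rdh10 (1.42-fold) and Rbp4 (1.40-fold).

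The CRX site was searched in the promoter windows as TAATCC on both strands, so that it also appears as GGATTA. Of the 36 phototransduction and outer segment genes that fell and had a window, 12 held it (33.3%). The shares were 18.4% of the 174 genes that fell at least 1.5-fold and 13.1% of the 175 that rose at least 2-fold. Among all 15563 genes with a window it was 7.58%. None of the 36 held an ISRE. The stretches of 5 of the 12 follow, with the CRX site in capitals, 5′ to 3′ on the strand of the gene (RefSeq, GRCm38.p6), to show where it lies in genes that fell.
Gnat2 (chr3:108093007-108093065, plus strand): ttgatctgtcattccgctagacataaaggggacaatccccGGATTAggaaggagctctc
Ppef2 (chr5:92256357-92256442, minus strand): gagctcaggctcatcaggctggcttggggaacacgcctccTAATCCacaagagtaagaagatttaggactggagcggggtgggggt
Gucy2f (chrX:142196950-142197060, minus strand): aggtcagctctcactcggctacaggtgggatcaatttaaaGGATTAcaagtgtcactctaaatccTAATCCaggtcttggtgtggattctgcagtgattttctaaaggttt
Unc119 (chr11:78345426-78345511, plus strand): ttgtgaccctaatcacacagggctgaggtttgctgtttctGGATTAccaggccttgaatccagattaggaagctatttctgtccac
Gnb5 (chr9:75306242-75306287, plus strand): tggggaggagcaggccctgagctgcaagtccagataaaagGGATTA
Gucy2f held 2 matches, on opposite strands. These genes fell 2.18-fold, 2.09-fold, 1.78-fold, 1.75-fold and 1.63-fold, in the order shown. The other 5 motifs were also searched on both strands. The STAT site (TTC, any 3 bases, GAA) was found in 18.9% of the genes that rose at least 2-fold, against 9.01% of all genes with a window. For the AP-1 site (TGA, any base, TCA) the shares were 17.7% and 8.06%. The NF-kB site (GGGA, any 2 bases, TTCC) was found in 6.86% against 1.6%, the E-box (CACGTG) in 8.57% against 9.52% and the antioxidant response element (TGAC, any 3 bases, GC) in 13.7% against 15.2%.

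Several of the largest falls lay outside these groups. Spc25, known as a kinetochore component, was a bright gene of control NSR, with values of 10.71, 10.95, 10.85 and 10.72 in control 1 to 4 and 8.21, 8.5, 7.36 and 8.81 in light 1 to 4. Light 3 was the lowest and light 4 the highest of the light arrays, and Spc25 fell 6.01-fold (log2 -2.59, SE 0.23, n = 4 per group, adjusted p = 1.26e-05). In the list of 28 cell cycle genes 4 fell (14.3% against 6.25% of all genes), the others being Ccna2 (1.35-fold), Aurkb (1.24-fold) and Spc24 (1.21-fold). In the same list 2 rose (7.1%, near the 8.86% of all genes), Ccnd1 (1.77-fold) and Mcm6 (1.24-fold). The Spc24 call was lost without control 1, control 3, light 2 or light 3, the Mcm6 call without control 1, control 2, control 4, light 1, light 3 or light 4, and the rises numbered 1 without control 1, control 2, control 4, light 3 or light 4. Glb1l3, a galactosidase-like gene, stood at 8.58, 8.42, 8.43 and 8.6 in control 1 to 4 and 5.91, 5.86, 6.26 and 5.92 in light 1 to 4 and fell 5.74-fold (log2 -2.52, SE 0.09, n = 4 per group, adjusted p = 8.68e-09). Its relative Glb1l2 fell 2.70-fold (control arrays 10.62 to 10.73, light arrays 9.05 to 9.47). Sh2d1a, best known as a lymphocyte signalling adaptor, fell 3.37-fold (control arrays 8.43 to 9.0, light arrays 6.86 to 7.07).

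Rrh, the light-sensing protein peropsin, fell 3.17-fold (control arrays 8.53 to 8.67, light arrays 6.77 to 7.21), and Rabgef1, a regulator of endosome fusion, 2.94-fold (control arrays 10.68 to 10.85, light arrays 8.93 to 9.54). Plpp2, a lipid phosphatase, fell 2.63-fold, and Slc22a29, an organic anion transporter family gene, 2.53-fold. Ccdc180 fell 2.78-fold, but its 27 transcript clusters ranged from -1.48 to 0.04, with 9 of them called. Dgkeos, an RNA from the strand opposite Dgke, fell 2.76-fold, and whether the values tell the strands apart is unknown here. The histone genes H3c15 and H1f2 fell 2.70-fold and 2.27-fold. Among 44 histone genes 7 fell and 1 rose, with a median of -0.09.

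**Figure D4:**
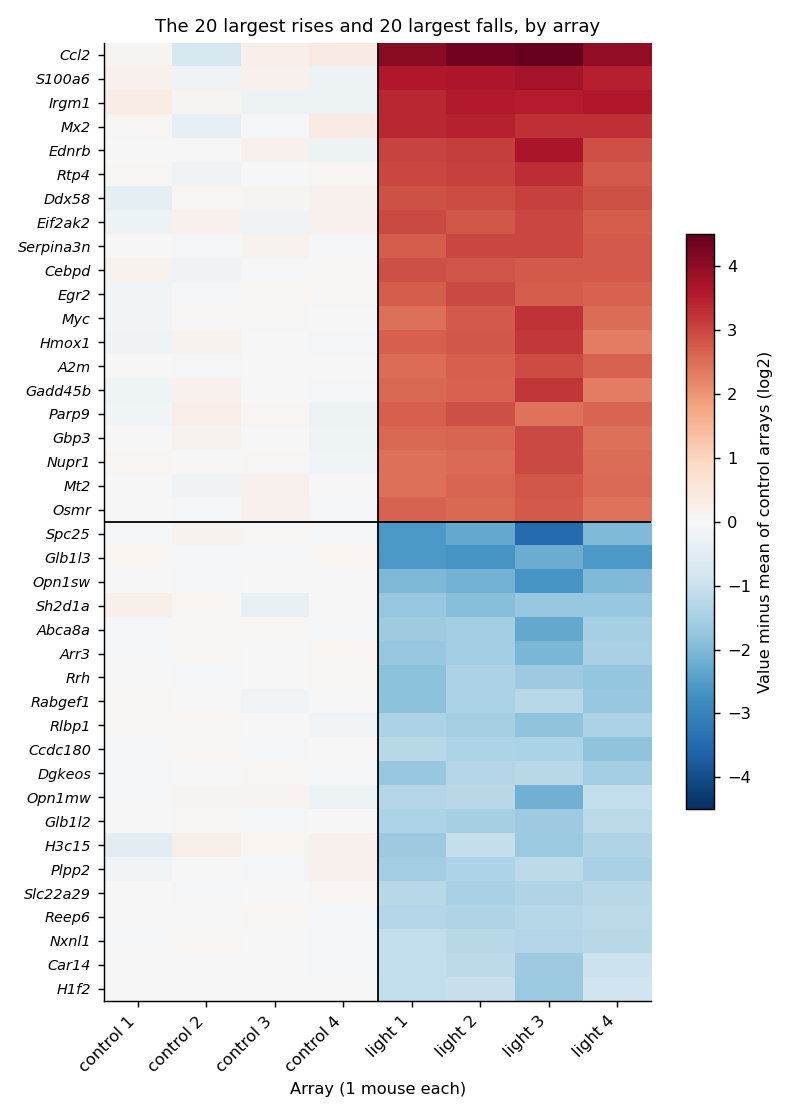
Heat map of the 20 largest rises (top) and 20 largest falls (bottom) among called genes whose groups do not overlap. Each column is an array (control 1 to 4, light 1 to 4), and the colour is the value minus the gene's mean over the control arrays (log2, blue below 0 and red above). Control columns are pale, and every light column has the colour of its block for all 40 genes.

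Genes of inner retinal neurons were counted by cell type. Of 24 bipolar cell genes 10 fell (41.7% against 6.25% of all genes) and 1 rose, with a median of -0.17, and without light 1 the falls numbered 6. Prkca, protein kinase C alpha of rod bipolar cells, stood at 9.99, 10.03, 10.06 and 9.89 in control 1 to 4 and 9.49, 9.56, 9.52 and 9.48 in light 1 to 4 and fell 1.40-fold (log2 -0.48, SE 0.06, n = 4 per group, adjusted p = 0.000227). Strip2 fell 1.63-fold and Neto1 1.44-fold, and Grik1, a kainate receptor subunit, rose 1.31-fold. Of 27 amacrine cell genes 3 rose (11.1%, near the 8.86% of all genes) and 0 fell. Tac1, a tachykinin precursor, rose 1.67-fold, while the calls of Slc6a5 (1.37-fold) and Vip (1.33-fold) were lost without control 1, control 3, control 4, light 2, light 3 or light 4 in each case. Of 13 horizontal cell genes Tpm3 rose (1.93-fold), and Septin4 (1.38-fold) and Calb1 (1.30-fold) fell, which is 7.70% and 15.4% of this short list.

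Of 25 ganglion cell genes 3 rose (12.0%) and 1 fell (4.00%), both near the shares of all genes, and the rises numbered 5 without control 2. Gap43, a growth cone protein, had values of 9.64, 9.55, 9.67 and 9.59 in control 1 to 4 and 10.84, 10.91, 11.04 and 10.93 in light 1 to 4 and rose 2.49-fold (log2 1.32, SE 0.07, n = 4 per group, adjusted p = 9.22e-08). The neurofilament gene Nefh rose 1.37-fold and Tubb3 1.37-fold, a call lost without light 2 or light 3, and Chrna6 fell 1.36-fold. Of genes known to rise in injured ganglion cells, 11 of 20 rose with 1 fall (Csrp3, 1.32-fold; 2 without control 3 or light 3), but Atf3, Jun and Klf6 on this list are also made by other cells.

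Of 24 genes of the ribbon synapse 9 fell and 2 rose. Cacna1f, the calcium channel of photoreceptor terminals, fell 1.75-fold (control arrays 9.94 to 10.13, light arrays 9.14 to 9.29), Dmd 1.56-fold and the vesicular glutamate transporter gene Slc17a7 1.46-fold. Erc1 rose 1.46-fold and Ctbp2, whose product includes the ribbon protein RIBEYE, 1.19-fold. The 3 transcript clusters of Erc1 changed by 0.23 to 0.54, and 1 of them was called. Of 26 potassium channel genes 1 rose (3.8%) and 3 fell (11.5%), against 8.86% and 6.25% of all genes. Among the falls Kcnv2 and Kcnj10 were joined by Kcnj14 (1.44-fold). The rise of Kcnd2 (1.38-fold) was lost without control 1, control 2, control 3, control 4, light 2, light 3 or light 4. Of 23 transmitter receptors 5 rose and 3 fell. The AMPA receptor gene Gria1 rose 1.88-fold and the glycine receptor genes Glra1 and Glra3 1.85-fold and 1.58-fold. The falls were Grm5 (1.25-fold), Grm8 (1.23-fold) and Gabrr1 (1.18-fold), and their count was 1 without control 2, control 4, light 1 or light 4.

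Metabolic genes moved both ways. Pfkfb2, which makes the activator of phosphofructokinase, fell 1.73-fold (control arrays 11.64 to 11.73, light arrays 10.87 to 10.92), and Hk2, the hexokinase of photoreceptors, 1.36-fold. Slc16a1, the lactate transporter MCT1, fell 2.05-fold (control arrays 9.32 to 9.61, light arrays 8.23 to 8.73). Of 33 glycolysis and citric acid cycle genes 5 rose (15.2%) and 4 fell (12.1%), against 8.86% and 6.25% of all genes. The falls numbered 2 without control 2, control 3 or light 3. Idh2, a mitochondrial isocitrate dehydrogenase, rose 1.49-fold. Of 22 amino acid and glucose transporters 4 rose, with a count of 2 without control 1, control 2, control 3 or light 1, and 3 fell, among them the glutamine transporter gene Slc38a3 (1.51-fold). Oxidative phosphorylation genes fell in 6 of 47 cases (12.8% against 6.25% of all genes), of which Ndufb3 fell the most (1.32-fold). The count was 2 without light 3 and 3 without control 2, control 3, light 1 or light 4. Pmvk, an enzyme of the mevalonate pathway, rose 2.55-fold (control arrays 8.04 to 8.18, light arrays 9.27 to 9.56), Ebp, which acts later in sterol synthesis, 1.96-fold, and Ch25h, which makes the antiviral sterol 25-hydroxycholesterol, 1.87-fold. Of 30 sterol and fatty acid genes 3 rose (10.0%, near the 8.86% of all genes) and 5 fell (16.7% against 6.25%). The falls were Abcg1 (1.51-fold), Scd2 (1.43-fold), Srebf1 (1.37-fold), Dhcr7 (1.26-fold) and Tm7sf2 (1.15-fold). The count of falls was 3 to 4 when 1 array was left out, and 3 without control 1, control 2, control 3, light 1 or light 2. The Tm7sf2 call was lost without any 1 of 8 arrays. Among 22 clock genes Bhlhe40 (1.66-fold), Nfil3 (1.41-fold), Csnk1e (1.26-fold) and Nr1d1 (1.23-fold) rose, and Ciart (1.42-fold) and Per3 (1.17-fold) fell, beside the changed light schedule of the exposed mice. The Nr1d1 call was lost without control 3, control 4, light 1, light 2 or light 3, the Per3 call without control 1, control 2, control 3, light 2 or light 4, and the Ciart call when all transcript clusters of a gene were averaged.

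Markers of other cells were measured beside these results. Of 24 markers of microglia and macrophages 5 rose (20.8%) and 1 fell (4.2%), against 8.86% and 6.25% of all genes. The list's median level was 5.99 to 6.01 in control and 5.94 to 6.17 in light arrays. Cd68, a lysosomal protein of phagocytes, rose 3.48-fold, Tyrobp 2.07-fold and Lyz2, lysozyme, 1.91-fold from dim levels. Cd14 rose 1.43-fold, a call lost without control 2 or control 4, Cd53 rose 1.38-fold, a call lost without control 3, light 1 or light 3, and Siglech, a marker of resting microglia, fell 1.34-fold. Of 16 markers of neutrophils and monocytes 0 rose and 1 fell (Camp, 1.17-fold, lost without any 1 of 6 arrays). Of 15 T and NK cell markers and 19 endothelial markers none was called in limma, and 3 and 1 of them had an unadjusted p under 0.05. These were Cd3g, Zap70 and Prf1, with changes of -0.17, -0.17 and -0.21, and the endothelial gene Egfl7, with 0.27. Of 18 pericyte and fibroblast markers Mgp rose 2.50-fold and Col3a1 fell (falls: 2 without control 3 or light 2). The 3 erythrocyte genes measured, Epb42, Alas2 and Slc4a1, changed by 0.11, -0.10 and 0.03 and were not called, with no unadjusted p under 0.05. Of 14 cornea and ciliary body markers Upk1b rose 1.22-fold, a call lost without control 1, control 2, control 4, light 1, light 2 or light 4.

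RPE and lens markers varied between NSR arrays. Of 26 RPE markers 2 rose (7.7%, near the 8.86% of all genes) and 4 fell (15.4% against 6.25%). The list's median level was 6.29 to 6.58 in control and 6.12 to 6.29 in light arrays. The rises were Sulf1, a sulfatase gene (1.91-fold), and Mertk, a receptor for engulfing outer segments (1.6-fold), and the falls were Rpe65, Rgr, Rlbp1 and Otx2. Rpe65, the retinoid isomerase of the RPE, stood at 4.17, 5.50, 5.70 and 5.01 in control 1 to 4 and 4.08, 3.93, 4.36 and 4.06 in light 1 to 4. Control 1 lay among the light arrays, and the fall of 1.98-fold (adjusted p = 0.0239) was lost without control 2, control 3, light 1 or light 2. Ttr, transthyretin, which the RPE makes, stood at 6.19, 7.53, 7.87 and 7.09 in control and 5.47, 6.41, 6.66 and 6.02 in light arrays, a change of -1.03 that was not called (adjusted p = 0.0541). Rpe65 and Ttr had the same order over the control arrays, lowest in control 1 and highest in control 3. Both were highest in light 3 among the light arrays. Lrat, at 5.07, 5.36, 4.78 and 5.43 and 5.76, 5.58, 5.33 and 5.21, was not called either. The same held for Best1, at 5.56, 5.66, 5.67 and 5.56 and 5.75, 5.45, 5.60 and 5.62. Lrat was lowest in control 3 among the control arrays, and both Lrat and Best1 were highest in light 1 among the light arrays. Rpe65, Lrat and Best1 were all at dim levels, with no value above 5.76. Rgr, an opsin of the RPE and Müller glia, fell 2.17-fold. It stood at 6.82, 7.20, 7.38 and 7.21 in control and 6.02, 5.43, 6.42 and 6.26 in light arrays. Like Rpe65 and Ttr, Rgr was lowest in control 1 and highest in control 3, and highest in light 3 among the light arrays. The part of RPE RNA in the changes of Rpe65, Ttr and Rgr was not tested. Of 21 lens markers 4 rose. Cryab, which retinal cells also make, rose 1.99-fold (control arrays 9.40 to 9.59, light arrays 10.28 to 10.66). Crygs stood at 5.02, 5.38, 5.15 and 4.85 in control and 6.14, 6.07, 6.47 and 5.63 in light arrays, Crygb at 4.67, 4.71, 4.69 and 4.89 and 5.60, 6.41, 5.68 and 5.02, and Cryba1 at 6.23, 6.28, 6.50 and 6.33 and 7.42, 7.02, 7.21 and 6.26, each lowest of the light arrays in light 4. The Cryba1 call was lost without any 1 of 7 arrays, while Cryaa, a main lens crystallin, was at 7.06 to 7.25 in control and 7.01 to 7.14 in light arrays.

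The responses of the NSR and of the RPE of the same mice were compared with an interaction term in a limma fit of all 16 arrays. The mouse was not in this fit, so that the tissues of a mouse were treated as independent. In it the responses differed in 2629 of 19938 genes (13.2%), with 1603 where the NSR response lay above that of the RPE (8.04%) and 1026 below (5.15%). With the mouse as a block, 1393 responses lay above that of the RPE and 884 below. All values that follow are from the fit without the block. Of interferon genes, the response lay above that of the RPE for 21 of 43 antiviral genes, 8 of 12 GTPases and 6 of 14 regulatory factors and STATs, and below it for 0, 1 and 0. Mx2 changed by 3.35 in the NSR and 0.53 in the RPE, a difference of 2.82 (SE 0.20, adjusted p = 7.21e-08). Ddx58 changed by 2.95 and 0.23, a difference of 2.72 (SE 0.16, adjusted p = 1.51e-08), and B2m by 2.19 and -0.14, a difference of 2.33. Gbp5 was the GTPase whose response lay below that of the RPE, with 1.57 in the NSR and 2.42 in the RPE (difference -0.85).

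Further genes with a larger response in the NSR followed. Mt2 changed by 2.61 in the NSR and -0.05 in the RPE, a difference of 2.66 (SE 0.11, adjusted p = 2.28e-10), and Mt1 by 1.33 and -0.32 (difference 1.65). Myc changed by 2.75 and -0.01 (difference 2.76), Fos by 1.00 and -0.37 (difference 1.36) and Slc14a1 by 2.57 and -0.23 (difference 2.80). Sostdc1, an antagonist of BMP signalling, had the reverse pattern of a fall in the RPE (-2.65) beside a change of -0.14 in the NSR that was not called (difference 2.51).

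In both lists of proteases and their inhibitors the difference ran both ways: the NSR response lay above that of the RPE for 6 of 22 matrix protease genes and 4 of 15 serpins, and below it for 4 and 4. Mmp3, one of the larger differences, changed by 0.07 in the NSR, at 4.98 to 5.56 in control and 5.14 to 5.62 in light arrays, and by 5.49 in the RPE, a difference of -5.42 (SE 0.25, adjusted p = 6.48e-10). Serpinb1a changed by -0.02 and 5.17, Mmp12 by 0.64 and 4.60, and the glutathione transferase gene Gsta3 by -0.07 and 3.30, with differences of -5.20, -3.96 and -3.38. Serpina3n rose in both tissues, by 2.87 and 6.0 (difference -3.14), as did Lcn2, by 2.12 and 4.57 (difference -2.45), and Vcam1, by 1.74 and 3.26 (difference -1.53). The histone gene H3c15 fell by 1.43 in the NSR and rose by 0.55 in the RPE (difference -1.99). Tnfaip3 changed in opposite directions, with -0.96 in the NSR and 0.95 in the RPE, a difference of -1.91 (SE 0.15, adjusted p = 2.47e-07).

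Other genes gave no called difference. Hmox1 rose by 2.74 and 2.28, and the difference of 0.47 had a 95% confidence interval of -0.03 to 0.97. Gnb3 rose by 1.28 in the NSR and 1.25 in the RPE (difference 0.03, interval -0.33 to 0.39), Ift57 by 0.95 and 0.93 (0.02, interval -0.19 to 0.23), and Nxnl1 changed by -1.23 and -0.95 (-0.28, interval -0.56 to -0.01, adjusted p = 0.192). The rod gene Gnat1 lay at 10.64 to 11.44 in the control RPE arrays, against 13.36 to 13.38 in the control NSR, and the part of photoreceptor RNA in the RPE values of Gnb3, Ift57 and Nxnl1 was not tested.

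**Figure D5:**
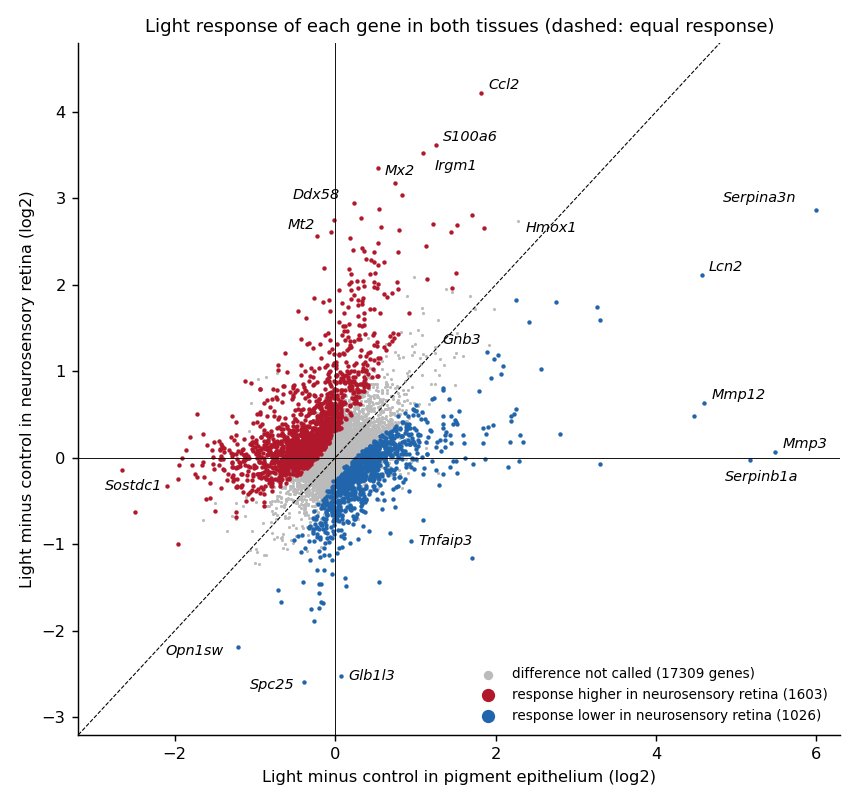
Light minus control (log2) in the RPE (horizontal axis) against the NSR (vertical axis), 1 point per gene. Red points had a response above that of the RPE in the NSR (1603) and blue points below (1026) in the limma interaction test, and the dashed line marks equal responses. Mmp3 and Serpinb1a lie far to the right at NSR changes of 0.07 and -0.02, and Mx2, Ddx58 and Mt2 lie high near the vertical axis.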

How the data were processed

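RNA of the NSR of 8 mice was measured on Affymetrix Mouse Gene 1.0 ST arrays, 1 per mouse and tissue. Each of 35556 transcript clusters has a deposited log2 value per array. Per the submitters' processing notes the authors used RMA and Partek 6.6, and the range of the values, 2.27 to 13.79 in the NSR, showed the log2 scale. Of the clusters, 21789 had 1 gene symbol in the platform annotation (its date is not given in the sources used here), 1621 had several and 12146 had none here; the brightest cluster of each of 19938 genes was used. Number of arrays limits the precision, and the values hold no detection calls, so that low levels have an unknown height above background.

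NSR light and control arrays were compared with limma 3.58.1 (lmFit and eBayes, R 4.3.3) and the difference of response from the RPE with an interaction term over 16 arrays, each with Benjamini-Hochberg adjustment over all genes at 0.05. The mouse was not in the main fit of this difference, so that the tissues of a mouse were treated as independent. Summaries used Python 3.11.15 with pandas 2.3.3, numpy 2.4.6 and matplotlib 3.10.9. The fits were first tested on simulated data. Gene lists and the genes chosen for naming were drawn up with earlier results of these data known. Named genes were the 20 largest rises and falls with groups that do not overlap, up to 4 called genes per list, all members of lists of at most 12 genes, and the 6 largest called differences from the RPE in each direction. Further genes were named after their values were seen: the remaining called members where a count was small, Cngb3, Gnat2, Glul, Apoe, Socs2, Socs3, Trf, Hfe, Tfrc, Cryaa, Cd3g, Ttr, Nudt6, Cd53, Siglech and Neurod1 among them. Replicate numbers do not pair light with control mice.

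Alternatives were array centring, quantile normalization, a filter on dim genes, the mean of a gene's clusters or all clusters, the eBayes prior, array weights, a test against a 1.2-fold change, a replicate block, all 16 arrays in the fit, and leaving out each array.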

Additional observations from a re-analysis of the deposited data

Results flagged for a closer look

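In 41 of the 764 groups of 4 arrays behind the printed genes, 1 array stood apart from the other 3 by Dixon's test (5.4%), and chance sets apart about 1 in 20 groups. Control 1 stood apart for Ddx58 at 6.19 against 6.70 to 6.79, Fn1 at 7.69 against 7.40 to 7.42, Idh2 at 7.38 against 7.65 to 7.70, Jak1 at 10.21 against 9.96 to 9.98, Jam2 at 9.13 against 9.36 to 9.40 and Prf1 at 6.84 against 7.03 to 7.06. The same array, control 1, also stood apart for Socs2 at 7.14 against 7.37 to 7.40, Tubb3 at 9.06 against 9.49 to 9.58 and Xiap at 10.65 against 10.81 to 10.85. Control 2 stood apart for Apoe at 10.35 against 10.67 to 10.72. Control 3 stood apart for Ebp at 6.96 against 7.05 to 7.07, Ikbkg at 6.67 against 6.56 to 6.57, Masp2 at 6.78 against 6.89 to 6.90 and Trf at 7.81 against 7.46 to 7.48. Control 4 stood apart for C1s1 at 4.27 against 4.47 to 4.5, Cnga1 at 12.10 against 12.17 to 12.17, Col4a3 at 7.30 against 7.14 to 7.14, Dhcr7 at 7.08 against 7.28 to 7.32, H2-Aa at 5.35 against 5.63 to 5.67 and Psmb8 at 6.6 against 6.32 to 6.36. The same array, control 4, also stood apart for Strip2 at 8.47 against 8.65 to 8.65. Light 1 stood apart for Siglech at 5.86 against 5.78 to 5.78. Light 2 stood apart for Cd3g at 4.12 against 4.21 to 4.23, Cd55b at 3.25 against 3.44 to 3.47, S100b at 6.27 against 6.76 to 6.81 and Sh2d1a at 6.86 against 7.05 to 7.07. Light 3 stood apart for Abca8a at 7.37 against 8.08 to 8.18, Alas2 at 6.63 against 6.74 to 6.75, Cp at 11.49 against 11.55 to 11.56, Glb1l3 at 6.26 against 5.86 to 5.92, Guca1a at 12.38 against 12.58 to 12.62 and Kpna2 at 11.09 against 11.12 to 11.13. The same array, light 3, also stood apart for Lif at 8.59 against 7.96 to 8.03, Nupr1 at 10.36 against 9.86 to 9.91, Opn1sw at 9.21 against 9.76 to 9.87, Pde6g at 11.45 against 11.61 to 11.63 and Rcvrn at 10.69 against 11.03 to 11.10. Light 4 stood apart for Abcg1 at 7.58 against 8.04 to 8.13, Hfe at 6.21 against 6.50 to 6.55, Hrk at 7.74 against 7.59 to 7.62 and Masp2 at 6.94 against 7.23 to 7.28. All of these are log2 values, given against the range of the other 3 arrays of the group.

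The light response (log2 light minus control) of the NSR differed from that of the RPE in limma's interaction test for the 19 genes whose difference, with a call, is printed in the report. It was above that of the RPE by 2.82 for Mx2, 2.80 for Slc14a1, 2.76 for Myc, 2.72 for Ddx58, 2.66 for Mt2, 2.51 for Sostdc1, 2.33 for B2m, 1.65 for Mt1 and 1.36 for Fos. It was below that of the RPE, with differences of -5.42 for Mmp3, -5.20 for Serpinb1a, -3.96 for Mmp12, -3.38 for Gsta3, -3.14 for Serpina3n, -2.45 for Lcn2, -1.99 for H3c15, -1.91 for Tnfaip3, -1.53 for Vcam1 and -0.85 for Gbp5. The adjusted p lay between 2.28e-10 and 0.00162.

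Among the 12146 transcript clusters with no symbol here, which enter none of the comparisons above, 610 were called in limma (5.02%), 202 higher and 408 lower in light.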

How the results depend on the processing

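The test against a 1.2-fold change (limma's treat) left 552 rises and 246 falls in place of 1766 and 1246; it asks for more than any change, which by its construction lowers both counts. In the other settings the NSR counts stayed within 1.5 times of these values: centring each array on its median gave 2032 and 991, quantile normalization 1770 and 1202, leaving out the dimmest 25% of genes 1850 and 1321, testing all clusters one by one 1716 and 1412, and fitting all 16 arrays 1741 and 1175. Leaving out 1 array gave 1391 (without light 2) to 1817 (without light 4) rises and 940 (without control 2) to 1102 falls. With the replicate number as a block there were 1675 rises and 1056 falls, where the same number names different mice. Same-numbered light and control arrays had correlations of their deviations between -0.016 and 0.067, and 2 of 4 light arrays correlated best with their own number. For NSR and RPE arrays of the same mouse these correlations lay between -0.011 and 0.055. Since both ranges are alike, they cannot tell whether a number pairs arrays. For the difference from the RPE, where the number is the mouse, the replicate block gave 1393 responses above and 884 below that of the RPE, and leaving out 1 array 1410 to 1606 above and 879 to 1033 below. Lists with at least 50% of their genes called numbered 12 for rises, between 8 (without light 3) and 12 when 1 array was left out, and 4 for falls, which did not vary.

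Of the 330 printed genes that were called, 214 kept the call in every alternative, 116 lost it in at least 1, of which 111 under the 1.2-fold test, and none changed direction. Without 1 array, 45 printed genes lost the call, with adjusted p up to 0.133 in limma: Adm, Aldoc, Batf, Bcl2l1, C1qb, C1qc, Camp, Cars, Cct2, Cd14, Cd53, Col9a1, Cryba1, Dhcr7, Epas1, Gabrr1, Gas6, Gbp8, Gdnf, Gnat1, Grm8, Hars, Hrk, Ifnar1, Ikbkg, Inhbb, Kcnd2, Masp2, Mcm6, Mef2d, Nr1d1, Pdgfc, Pdia4, Per3, Phgdh, Psat1, Rpe65, Sag, Slc6a5, Spc24, Tdrd7, Tm7sf2, Tubb3, Upk1b and Vip. The cause was not tested. Array values give no depth, and the signal of the dimmest 25% of genes, below 5.57, cannot be set against background here.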

Other observations

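Some neighbouring genes moved together, a pattern chosen after the values were seen. Glb1l2 and Glb1l3, which fell by 1.43 and 2.52 on the log2 scale, lie next to each other in the RefSeq gene order. Xiap and Sh2d1a, which fell by 0.95 and 1.75, have 3 genes between them. Nudt6 and the antisense RNA gene Fgf2os, which overlap Fgf2 on the other strand, changed by 1.55 and 2.18 beside 1.81 for Fgf2, and whether the array values tell the strands apart is not given in the sources used here.

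Large gene families outside the lists of the report were counted too. Of 1027 olfactory receptor genes 1 rose and 13 fell, and of 291 microRNA genes 5 rose and 13 fell in limma, against 8.86% and 6.25% of all genes. Transcript clusters with several symbols, 1621 in number, were called in 9.38% of cases, 101 higher and 51 lower.

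Over the 43 genes that fell at least 2-fold, the median change was -1.26, -1.26, -1.31 and -1.19 in light 1 to 4. Light 4 had the lowest value of the 4 light arrays for 111 of the 227 genes that rose at least 2-fold, and light 3 the highest for 138.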
